A study of Homo sapiens with 50 samples.

Results

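The genes described here are the short entries of the authors' list of DLD-1 genes, each given with a pause site. They are those whose listed interval spans under 6000 bp. There were 393 of them among 6481 listed genes (6.06%), from 3005 to 5992 bp long with a median of 4587 bp, against a median of 35481 bp over the whole list. Each listed gene came with a single pause site of 1 bp, and the pause distance is the number of bp from the listed 5′ end to that site along the gene's strand. Of the short genes, 367 received a gene symbol by position, all of them protein coding, and 26 kept only their Ensembl identifier. The strand of a RefSeq promoter was known for 276 of the named genes and matched the listed strand in all 276. The list held 196 short genes on the plus strand and 197 on the minus strand.

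The lists belong to a study of SPT6, a histone chaperone and elongation factor of RNA polymerase II (Pol II). DLD-1 is an established line from a human colorectal adenocarcinoma, and here it carried OsTIR1, a plant F-box protein that directs AID-tagged proteins to degradation once auxin is added. The 50 libraries were chromatin immunoprecipitations and an input control, and fell into 32 groups by antibody or input, line, treatment and time. The lines were the parental OsTIR1 cells and cells with an auxin-inducible degron, AID, on SPT6, on PAF1, on SPT6 and PAF1, or on SPT6 and NELF-C, given vehicle for 2 h or 500 µM auxin for 0, 2 or 6 h. Library signal was left out here, and both lists hold 1 value per gene and none per library, so that no library, treatment or replicate could be compared and the depth behind a pause site is unknown.

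After initiation Pol II transcribes a short stretch and then halts just downstream of the start, held by the factors DSIF and NELF until the kinase P-TEFb releases it into elongation. On a short gene the released polymerase has only a brief stretch left to transcribe, and many short genes encode products that a cell makes in bulk, such as ribosomal proteins, or has to make at once, such as the immediate early transcription factors. Promoters of ribosomal protein genes are known to start transcription at a cytosine followed by a run of pyrimidines, the 5′ terminal oligopyrimidine (TOP) motif of their mRNAs, whereas promoters of many induced genes carry a TATA box upstream of a sharply placed start.

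Both kinds of start were found at the listed 5′ ends of the short genes, and a set of each is printed here because their shares differed from those of the longer genes by more than the counting intervals. Sequences are from RefSeq promoters (GRCh38.p14, the primary coordinates of hg38) and run 5′ to 3′ on the gene's strand from 40 bases before the listed first base to 10 bases after it. In the lines that follow, capitals mark the pyrimidine run from the listed first base of 6 ribosomal protein genes, then of RAB13, a GTPase of vesicle traffic, and of EEF1A1, the elongation factor that brings aminoacyl-tRNA to the ribosome.
RPLP1, chr15:69452781-69452831, plus strand: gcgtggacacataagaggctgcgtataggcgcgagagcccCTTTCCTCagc
RPS13, chr11:17077657-17077707, minus strand: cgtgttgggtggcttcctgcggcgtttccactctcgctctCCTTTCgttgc
RPL24, chr3:101686708-101686758, minus strand: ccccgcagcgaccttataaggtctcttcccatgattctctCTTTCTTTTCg
RPS23, chr5:82278344-82278394, minus strand: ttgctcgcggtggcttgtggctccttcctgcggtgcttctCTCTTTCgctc
RPL11, chr1:23691766-23691816, plus strand: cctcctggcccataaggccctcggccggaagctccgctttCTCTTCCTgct
RPL39, chrX:119791615-119791665, minus strand: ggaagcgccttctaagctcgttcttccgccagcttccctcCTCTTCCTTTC
RAB13, chr1:153986329-153986379, minus strand: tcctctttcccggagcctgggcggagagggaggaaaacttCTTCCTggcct
EEF1A1, chr6:73521022-73521072, minus strand: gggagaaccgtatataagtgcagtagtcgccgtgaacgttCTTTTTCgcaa

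In the next lines capitals mark the TATAAA match and the listed first base. FOS encodes a subunit of the AP-1 transcription factor, CCN2 a secreted matricellular protein, DUSP1 a phosphatase of MAP kinases, HEXIM1 an inhibitor of P-TEFb, GDF15 a secreted stress cytokine, BTG1 an antiproliferative protein and H3-3B the histone variant H3.3.
FOS, chr14:75278788-75278838, plus strand: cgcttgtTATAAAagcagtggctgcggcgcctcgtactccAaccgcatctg
CCN2, chr6:131951362-131951412, minus strand: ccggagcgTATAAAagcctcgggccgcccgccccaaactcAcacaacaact
DUSP1, chr5:172771185-172771235, minus strand: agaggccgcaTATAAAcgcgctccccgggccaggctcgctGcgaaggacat
HEXIM1, chr17:45148435-45148485, plus strand: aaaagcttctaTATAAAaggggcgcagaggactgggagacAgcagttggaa
GDF15, chr19:18386118-18386168, plus strand: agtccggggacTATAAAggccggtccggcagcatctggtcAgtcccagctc
BTG1, chr12:92145838-92145888, minus strand: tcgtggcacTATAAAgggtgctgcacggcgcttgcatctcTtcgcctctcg
H3-3B, chr17:75779768-75779818, minus strand: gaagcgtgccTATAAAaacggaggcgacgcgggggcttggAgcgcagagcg

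A start sequence could be read for 246 of the short genes and for 3960 longer ones, those whose listed 5′ end lay inside a RefSeq promoter window with enough sequence on both sides. An oligopyrimidine start, a C at the listed first base and C or T at each of the 4 bases after it on the gene's strand, was present in 24 of 246 short genes, or 9.76% (95% Wilson interval 6.64 to 14.1). It was present in 64 of 3960 longer genes, or 1.62% (1.27 to 2.06), and in 2.09% of all listed genes whose start could be read. At the annotated starts of all 35116 RefSeq promoter windows, which include many genes that DLD-1 cells may not use, the share was 4.07%. The intervals of the short and the longer genes do not overlap, but they cover counting over genes only, and genes are not replicates.

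Ribosomal protein genes made up most of this class. All 16 named short ribosomal protein genes with a readable start had the oligopyrimidine start, as did 7 of 10 longer ones. Among named genes outside that family it was present in 6 of 212 short genes, or 2.83% (1.30 to 6.04), and in 52 of 3552 longer genes, or 1.46% (1.12 to 1.91), and these intervals overlap. The 6 were RAB13, EEF1A1, TUBB (a β-tubulin), CDKN1B (the cyclin-dependent kinase inhibitor p27), KLHL9 (a substrate adaptor of a cullin ubiquitin ligase) and MID1IP1. It was also present in 2 of 18 unnamed short genes, ENSG00000109475.17 and ENSG00000167526.14, whose family is not known here and may be that of the ribosomal proteins. The pyrimidine runs were 5 to 11 bases long with a median of 7, and the longest, in RPL39 and MID1IP1, reached the end of the bases read.

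The oligopyrimidine start was unevenly spread over length. It was present in 4.11% of genes under 4000 bp, 4.76% of those from 4000 to 4999 bp and 19.1% (12.3 to 28.5) of those from 5000 to 5999 bp. In that last class 12 of the 17 genes with the motif were named ribosomal protein genes. Just above the limit, from 6000 to 7999 bp, the share was 4.09%, and it was 0.84% from 50000 to 199999 bp.

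The TATA match was rarer. TATAAA lying wholly within the stretch 40 to 20 bases before the listed first base, on the gene's strand, was found in 13 of 246 short genes, or 5.28% (3.11 to 8.83). It was found in 42 of 3960 longer genes, or 1.06% (0.79 to 1.43), and in 1.31% of all listed genes with a readable start. In the short genes its first base lay 33 to 29 bases before the listed one, with a median of 30, although any match wholly inside that stretch would have counted. The share was 11% (5.66 to 20.2) in genes under 4000 bp, which held 8 of the 13, then 3.57% and 2.25% in the following length classes under 6000 bp. Just above the limit, from 6000 to 7999 bp, it was 2.92% (1.26 to 6.66). From the limit to 10 kb it was 2.66% (1.41 to 4.98), an interval that overlaps that of the short genes. Of all RefSeq promoter windows, 2.26% had the match at that place relative to the annotated start.

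Beside the printed genes the class held RNF223, PPP1R15A (the GADD34 subunit that directs protein phosphatase 1 to eIF2α), TNFSF9 (the ligand of 4-1BB), CDKN2AIP, RPLP0 and RPL22L1. The last pair, RPLP0, a protein of the ribosomal stalk, and RPL22L1, a paralogue of RPL22, also had the oligopyrimidine start. Among the immediate early genes with a readable start 3 of 9 had the match, namely FOS, CCN2 and BTG1, and without immediate early genes the share among short genes was 4.22% (2.31 to 7.59). A match to the letters is a description and not a measured binding site. The usual start, a C before and an A at the listed first base, was present in 129 of 246 short genes, or 52.4% (46.2 to 58.6), and in 52.0% (50.5 to 53.6) of longer ones, beside 52% of all listed genes with a readable start.

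**Figure D1:**
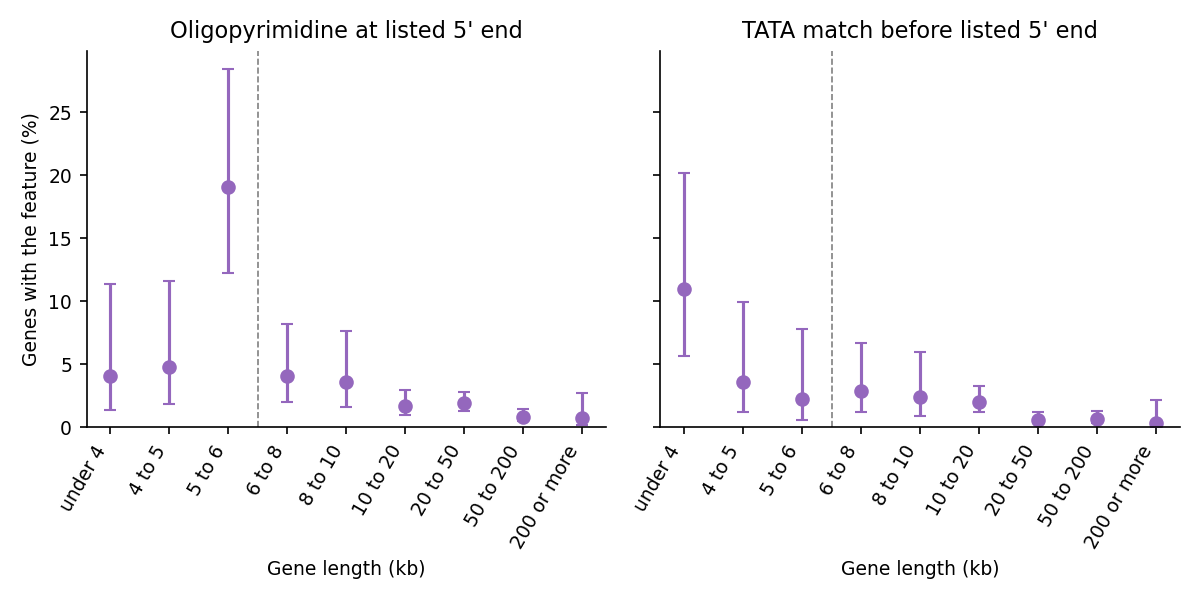
Share of listed genes with an oligopyrimidine start (left) and with a TATA match 40 to 20 bases before the listed 5′ end (right), by gene length in kb; points are shares of genes with a readable start, bars are 95% Wilson intervals, and the dashed line marks the 6 kb limit. The oligopyrimidine share is highest at 5 to 6 kb (19.1%) and the TATA share under 4 kb (11%).

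Most genes with a TATA match had their pause site within a narrow range. The distance was 23 bp for BTG1, 27 bp for DUSP1, 30 bp for RNF223, 33 bp for H3-3B and 41 bp for both CCN2 and PPP1R15A. It was 43 bp for FOS, 45 bp for HEXIM1 and TNFSF9 and 46 bp for GDF15 and RPLP0. The remaining genes, CDKN2AIP and RPL22L1, lay far from these at 151 and 169 bp. Thus 11 of 13 (84.6%) had a site at 20 to 49 bp, against 96 of 233 short genes (41.2%) without the match, and the medians were 43 bp (interval 30 to 46) and 51 bp (47 to 58). In the longer genes, which are other genes, 27 of 42 with a match (64.3%) and 1519 of 3918 without (38.8%) lay at 20 to 49 bp. The oligopyrimidine start showed no such narrow range, with a median of 53 bp (39 to 85) among the 24 short genes and a span from 30 bp in RPLP1 and KLHL9 to 223 bp in TUBB.

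Promoter windows as a whole ran from 250 bases before to 50 after the RefSeq start nearest to the listed one. They were slightly lower in G and C content in the short genes. The median G and C content was 65.3% (63.7 to 66) in 276 short genes and 67.7% (67.3 to 68) in 4533 longer genes. These intervals do not overlap. The median number of CpG dinucleotides was 26.5 (25 to 29) and 29 (29 to 29), intervals that meet at 29. TATAAA on either strand anywhere in the window was found in 7.25% (4.74 to 10.9) of short and 3.93% (3.40 to 4.53) of longer genes, in 4.12% of all listed genes with a window, and in 11.5% of all RefSeq windows. The share was 13.8% (8.07 to 22.6) under 4000 bp, 3.41% from 4000 to 4999 bp and 4.95% from 5000 to 5999 bp. Just above the limit, from 6000 to 7999 bp, it was 7.73% (4.74 to 12.4), so the match did not set the short genes apart from that class. 

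Over all short genes the pause distance followed that of the longer genes closely. Its median was 50 bp (interval 47 to 55, from order statistics), with quartiles at 37 and 86 bp and a range from 3 to 299 bp, and in longer genes the median was 52 bp (51 to 53) with quartiles at 38 and 83 bp. The most frequent class was 40 to 49 bp in both groups, with 79 short genes (20.1%) and 1156 longer genes (19%). A site lay more than 100 bp downstream in 20.9% (17.1 to 25.2) of the short genes, near the 18.7% of all listed genes. A site under 20 bp was listed for 7.38% (5.19 to 10.4) of the short genes and 7.08% of all. The distance was 1.20% of the gene's length at the median and at most 7.79%, in SRSF8.

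**Figure D2:**
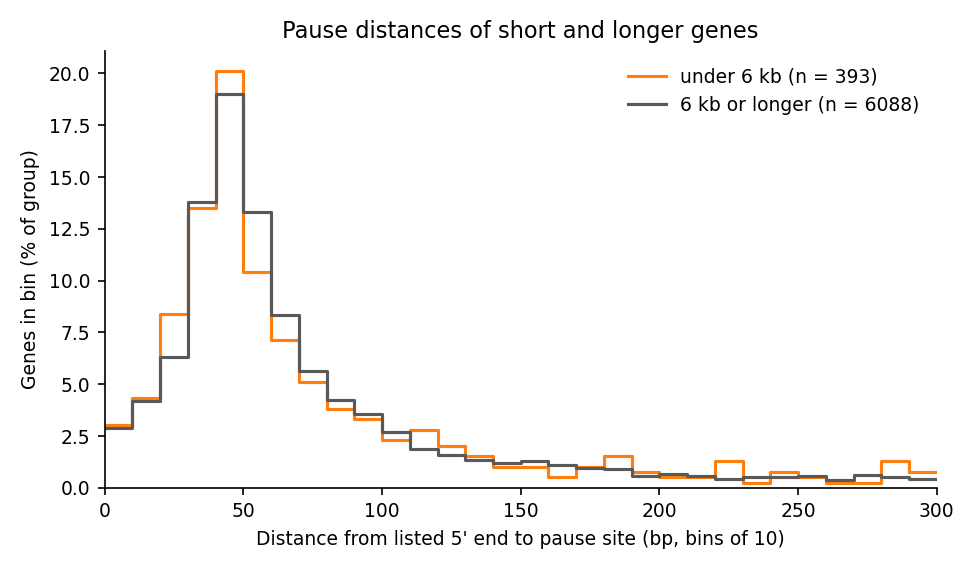
Share of genes in each 10 bp class of pause distance, for the 393 genes under 6 kb and the 6088 genes of 6 kb or longer, as a percent of each group. Both outlines peak at 40 to 49 bp (20.1% and 19%) and run together out to 299 bp.

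Length within the short range brought no ordered change. The median distance was 49 bp (45 to 56) in 125 genes under 4000 bp, 48.5 bp (45 to 58) in 128 genes from 4000 to 4999 bp and 53.5 bp (44 to 61) in 140 genes from 5000 to 5999 bp. It was 55 bp (51 to 63) in 261 genes from 6000 to 7999 bp and 57 bp (53 to 65) in 253 genes from 8000 to 9999 bp, then 50 bp (48 to 53) from 10000 to 19999 bp. The strands were alike, at 47.5 bp (44 to 57) on the plus and 52 bp (48 to 58) on the minus strand. Just inside the limit stood UBALD2 (5946 bp long, pause at 39 bp), LRATD2 (5949 bp, 66 bp), ENTPD2 (5955 bp, 35 bp), SELENOW (5980 bp, 51 bp) and PFN2 (5992 bp, 76 bp). Just outside stood 2 genes of 6000 bp without a symbol here (pauses at 32 and 41 bp), PNPLA2 (6002 bp, 41 bp), and GTPBP3 and UBALD1 (both 6005 bp, 77 and 46 bp).

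**Figure D3:**
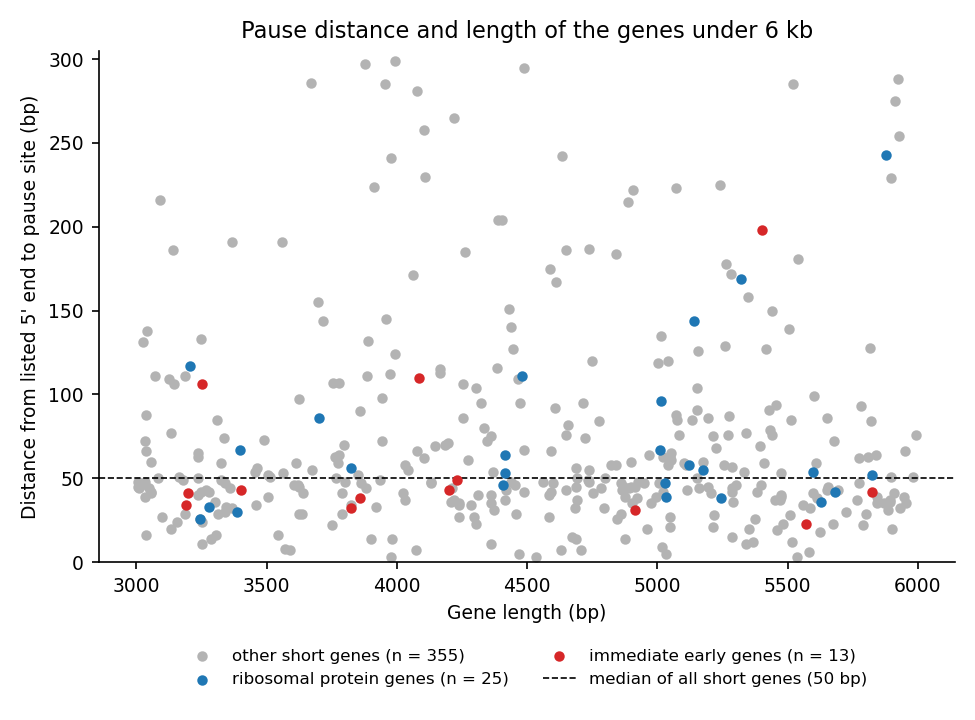
Pause distance (vertical, bp) against gene length (horizontal, bp) for each of the 393 genes under 6 kb, with 25 ribosomal protein genes in blue and 13 immediate early genes in red; the dashed line is the median of 50 bp. Points crowd below 100 bp at every length, and 25 genes lie at 200 bp or more.

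Among the 10 shortest entries were IQCC, with its pause at 44 bp, GDF15 at 46 bp, HGH1 at 39 bp, COX7C, a subunit of cytochrome c oxidase, at 72 bp, CXCL5, a chemokine, at 66 bp and SAT1 at 88 bp. MARS2, the mitochondrial methionyl-tRNA synthetase, had its site at 131 bp and was the only one of the 10 beyond 100 bp. IQCC lay at chr1:32205671-32208682 on the plus strand and was 3012 bp long.

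The pause sites nearest to the listed start were 3 bp away, in CD2BP2, NKIRAS2 and SLC35D3. S100A11 and an unnamed gene (ENSG00000120833.14) followed at 5 bp, RAN, the GTPase of nuclear transport, at 6 bp, and BBLN, FUT1, ZNF579 and another unnamed gene (ENSG00000100836.11) at 7 bp. At the far end stood SOWAHB at 299 bp, CHKB, a choline kinase, at 297 bp and ZNF747 at 295 bp. An unnamed gene (ENSG00000243989.9) followed at 288 bp, the splicing factor gene SRSF8 at 286 bp, ARF6 and RAB26 at 285 bp, HOXA11 at 281 bp, PRR15L at 275 bp and SFR1 at 265 bp. A distance at either end depends on the listed 5′ end. Among the nearest sites that end lay 2531 and 2717 bp downstream of the outermost RefSeq start in NKIRAS2 and FUT1, but 2, 30 and 32 bp in CD2BP2, RAN and S100A11. Among the farthest it was the same base in SOWAHB and HOXA11, but lay 501, 677 and 1997 bp downstream in RAB26, SRSF8 and SFR1.

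The listed and the RefSeq starts were the same base in 117 of 367 named short genes (31.9%, against 25.4% of longer ones) and within 10 bp in 176 (48.0%, against 39.4%). Restricted to those 176, the median distance was 46.5 bp (44 to 56) and only 3.41% (1.57 to 7.24) had a site under 20 bp, against 51 bp (50 to 53) and 4.23% (3.46 to 5.17) in longer genes under the same condition. A listed start over 1000 bp inside the RefSeq gene was found in 33 short genes (8.99%) and in 11.9% of longer ones. For 28 genes the RefSeq gene itself was 6000 bp or longer, so that they are short by the listed interval and not by the full annotation. The widest gaps were in RSRP1 (90800 bp) and DNAJB1 (42000 bp), the HSP40 co-chaperone gene, whose pauses lay at 41 and 29 bp from the listed start. PCNA, the sliding clamp of DNA replication, ZFP36L1, HOXA10, HOXD13 and RPL6 were also in this group.

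The short genes were sorted by their symbols with 28 lists of gene families, of which 25 had at least 1 short gene and 19 had 3 or more. The lists held 133 of the short genes and left 260 in none. Because short genes are a limited pool, each family was read against the RefSeq protein-coding genes of 3005 to 5999 bp. The list named 342 of 1827 such genes (18.7%, interval 17 to 20.6), against 33.7% (33.0 to 34.4) of RefSeq genes of 6000 bp or longer. The share was 15.6% under 4000 bp, 19.8% from 4000 to 4999 bp, 21.3% from 5000 to 5999 bp and 39.4% from 50000 to 199999 bp. An unnamed entry counts as not listed, so these shares are lower limits in that respect.

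Genes of the translation machinery were the largest group. The list had 25 short and 12 longer cytosolic ribosomal protein genes, and 23 of 37 RefSeq genes of that family and length range were listed (62.2%, interval 46.1 to 75.9). Their median pause distance was 55 bp, the value of RPS4X. RPLP1 had its site at 30 bp, RPS13 at 33 bp, RPL24 at 36 bp, RPL37A at 38 bp and RPS23 at 39 bp. RPLP0 followed at 46 bp, RPL11 at 47 bp, RPSA at 52 bp, RPL6 at 53 bp and RPS7 at 54 bp, and above the median stood RPL30 (56 bp), RPL39 (58 bp), RPL19 (64 bp) and RPL21 (67 bp). Of all short genes, the 10 bp classes from 20 to 69 bp held 8.40%, 13.5%, 20.1%, 10.4% and 7.12%. Among the ribosomal protein genes, 18 of the 25 lay between 20 and 69 bp and none nearer than 26 bp. RPS3A stood apart from them at 96 bp, and the 5 genes beyond 100 bp included RPL27 (111 bp), RPL36A (144 bp), RPL22L1 (169 bp) and RPL23 (243 bp). The 12 longer ribosomal protein genes had a median of 40.5 bp.

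The 6 short mitochondrial ribosomal protein genes ran from MRPL20 at 11 bp over MRPL9 at 52 bp to MRPS16 at 107 bp. Of 19 genes of that family and length 6 were listed (31.6%, interval 15.4 to 54.0). This interval covers the 18.7% of all short RefSeq genes. Translation factors had 3 short genes with rather distant sites, EIF1 at 64 bp, EEF1A1 at 172 bp and EIF3G at 222 bp. TUFM, the mitochondrial elongation factor Tu, was in none of the lists and had its site at 224 bp. Of the respiratory chain and ATP synthase, 5 short genes were listed with sites from 37 bp in ATP5MC3 through 42 bp in ATP5F1D to 72 bp in COX7C. The mitochondrial import genes TIMM8A, TOMM40L and TOMM5 had sites at 50, 56 and 71 bp.

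Immediate early genes, which respond to growth signals without new protein synthesis, were listed nearly without a gap. Of 13 RefSeq genes of this family and length, 12 were listed (92.3%, interval 66.7 to 98.6), and the one without a named entry was IER2. ZFP36L1 was short by its listed interval only. The 13 short entries had sites at 23 bp in BTG1, 31 bp in KLF4, 32 bp in EGR1, 34 bp in CCN1, 38 bp in KLF2, 41 bp in CCN2 and 42 bp in EGR3. FOS and IER5 followed at 43 bp and ZFP36L2, which promotes mRNA decay, at 49 bp. JUN, the partner of FOS in AP-1, at 106 bp, BTG2 at 110 bp and ZFP36L1 at 198 bp were the others. So 10 of 13 lay at 20 to 49 bp. Of all short genes, 8.40% lay at 20 to 29 bp, 13.5% at 30 to 39 bp and 20.1% at 40 to 49 bp. The family's median was 42 bp against 50 bp in all short genes. The 11 longer immediate early genes had a median of 37 bp.

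Genes on the lists for signalling and for the cell cycle spread more widely. The dual specificity phosphatases DUSP1, DUSP28 and DUSP6 were all 3 listed of 3 in the length range, at 27, 60 and 178 bp. With 3 genes the interval of that share was 43.9 to 100%, beside 18.7% of all short RefSeq genes. The cell cycle list held 7 short genes, with CDK4 at 27 bp, AURKB at 39 bp and GADD45A at 77 bp on one side. On the other were CDKN1B at 119 bp, CDK9, the kinase of P-TEFb, at 120 bp, CDKN2AIP at 151 bp and CDK5 at 230 bp. A symbol match does not show that a gene acts in the cell cycle. Small GTPases had 9 short genes from RAN at 6 bp and ARF5 at 11 bp over RAB13 at 50 bp, RRAS at 58 bp and HRAS at 74 bp to ARF6 and RAB26 at 285 bp.

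Transcription factor families had listed shares with wide, overlapping intervals, read here against the 18.7% of all short RefSeq genes. The intervals of HOX and FOX genes cover that share. Those of ZNF genes and of SOX genes (3 of 5, 60%, 23.1 to 88.2) lie above it. KLF and SP factors had 3 of 6 (50%, 18.8 to 81.2), as had bHLH, ID and HES factors, with a lower end next to it. Of 19 short ZNF genes 10 were listed (52.6%, interval 31.7 to 72.7), and the 13 short entries ran from ZNF579 at 7 bp over ZNF414 at 42 bp to ZNF747 at 295 bp. HOX genes had 6 short entries and 4 of 13 RefSeq genes of that length were listed (30.8%, interval 12.7 to 57.6), among the entries HOXA10 at 44 bp, HOXA13 at 62 bp, HOXB9 at 79 bp, HOXD13 at 106 bp and HOXA11 at 281 bp. FOX factors, with 3 of 12 listed (25%, 8.89 to 53.2), included FOXA1 at 47 bp and FOXA2 at 43 bp, pioneer factors of endoderm, and FOXC1 at 14 bp. SOX9, a factor of the intestinal crypt, and SOX4 had sites at 46 and 45 bp and SOX12 at 99 bp. BHLHE40, BHLHE41, HES2 and HES7 all lay between 31 and 51 bp.

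Other families had listed shares whose intervals cover the 18.7% of all short RefSeq genes. Of 22 short keratin genes 2 were listed (9.09%, interval 2.53 to 27.8), KRT18 at 29 bp and KRT19 at 37 bp, both keratins of simple epithelia. Solute carriers had 3 of 20 (15%, interval 5.24 to 36) and TMEM genes 8 of 34 (23.5%, 12.4 to 40). No short proteasome, claudin or HMG gene was listed, of 4, 2 and 2 in the length range, numbers too small to set against that share. Of the RNA polymerase subunits POLR1H had its site at 8 bp, POLR2G at 85 bp and POLR2K at 191 bp, and of the splicing genes LSM5 at 27 bp, LSM10 at 46 bp and SRSF8 at 286 bp.

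**Figure D4:**
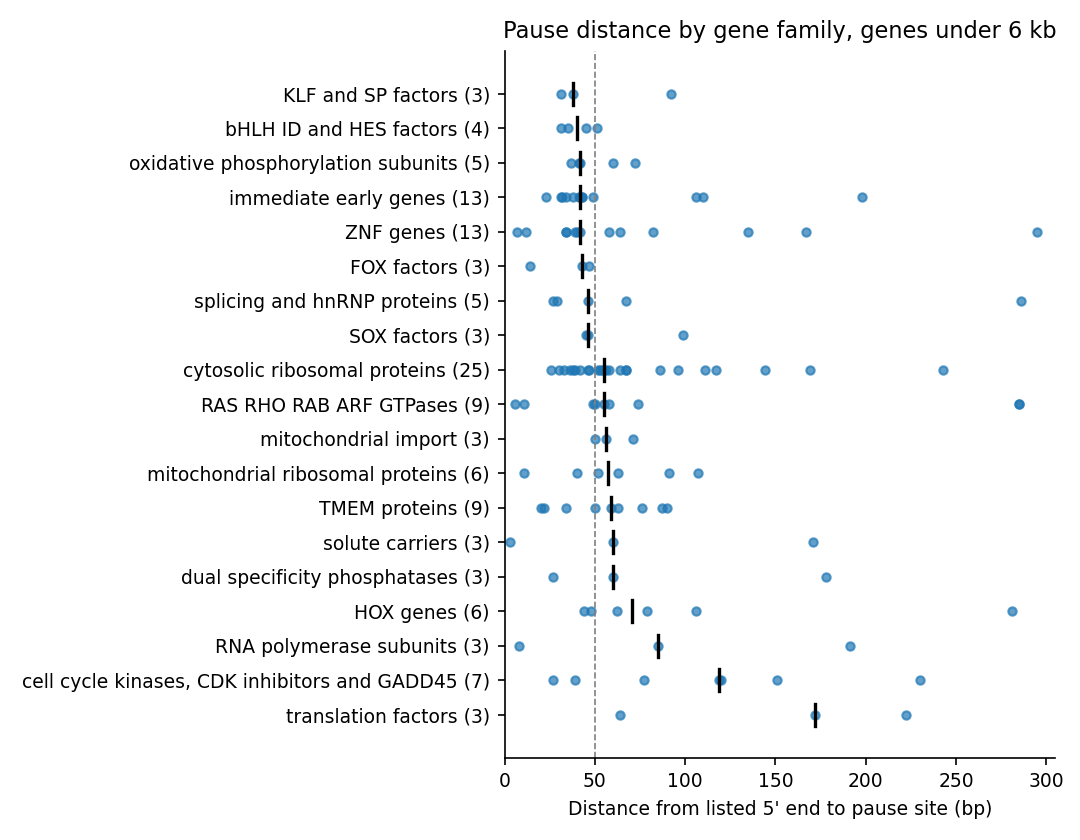
Pause distance of each short gene in the 19 families with 3 or more of them, 1 dot per gene (overlapping dots are darker), with the family median as a black bar, the number of genes in brackets and the median of all short genes as a dashed line. Immediate early genes crowd at 23 to 49 bp with 3 genes beyond 100 bp. The cell cycle list, matched by symbol and holding CDK9, CDK5 and CDKN2AIP, and the translation factors have the largest medians, 119 and 172 bp.

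Relatives outside these lists, picked by name after their values were known, had like distances in some cases and unlike ones in others. The PIM kinase genes PIM2 and PIM3 had sites at 35 and 36 bp and PIM1 at 225 bp. The Wnt receptor genes FZD8, FZD2 and FZD7 had sites at 14, 111 and 175 bp. The HLA class I genes HLA-B and HLA-E had sites at 16 and 32 bp and are uncertain, since their sequences are near copies of each other. The intraflagellar transport paralogues IFT70A and IFT70B lay at 254 and 241 bp and the CDK-binding proteins CKS1B and CKS2 at 115 and 139 bp. Genes of the cytoskeleton included ACTB at 54 bp, TUBA1B at 59 bp and TUBB at 223 bp, and the apoptosis regulators were PMAIP1 at 40 bp, MCL1 at 61 bp and BCL2L2 at 84 bp.

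The bases around the pause site could be read in 84 short genes and 1353 longer ones, those with the site and 10 bases on either side inside a promoter window. Since windows end 50 bases after a RefSeq start, near sites are favoured, and 75 of the 84 lay within 60 bp. The base after the listed pause base is printed for some of them because it was the most constrained letter of the stretch. Capitals mark the listed pause base and the one after it, and the last 3 lines are genes without the cytosine. EGR1 is an immediate early zinc finger factor, KLF4 a factor of epithelial differentiation, CDK4 the kinase of G1, and OXSM a mitochondrial fatty acid synthase enzyme.
EGR1, chr5:138465502-138465522, plus strand: tggggagccgCCgccgccatc
KLF4, chr9:107489725-107489745, minus strand: gaacgtgtctGCgggcgcgcg
CDK4, chr12:57752273-57752293, minus strand: tatggtcgggCCctctgcgtc
DUSP1, chr5:172771158-172771178, minus strand: tgtgtgtgcgACgcgggtcgg
FOXA1, chr14:37595266-37595286, minus strand: cgtaagatccACatcagctca
RPLP1, chr15:69452841-69452861, plus strand: ggtgctcggtCCttccgagga
RPS13, chr11:17077624-17077644, minus strand: atcatgggtcGCatgcatgct
BTG1, chr12:92145815-92145835, minus strand: gctggaaatgCAgctattgag
RPL24, chr3:101686672-101686692, minus strand: ccgtggagctGTcgccatgaa
OXSM, chr3:25790224-25790244, plus strand: aggggagtccGAggacctggg
A cytosine followed the listed pause base in 69 of 84 short genes, or 82.1% (72.6 to 88.9), in 1164 of 1353 longer genes, or 86.0% (84.1 to 87.8), and in 85.8% of all. At the other positions of the stretch cytosine made up 29.4% of bases in short and 29.2% in longer genes. Guanine, at 38.1% over the other positions, followed the pause base in 0 of the 84 short genes, and a count of 0, taken to allow 3 counts of the total, allows a share of up to 3.57%, counting error only. At the listed pause base itself guanine was the most frequent, in 41.7% of short and 47.9% of longer genes, and guanine stood at the second base after it in 50% and 55.9%. The intervals of the short and the longer genes overlap at the cytosine after the pause base.

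**Figure D5:**
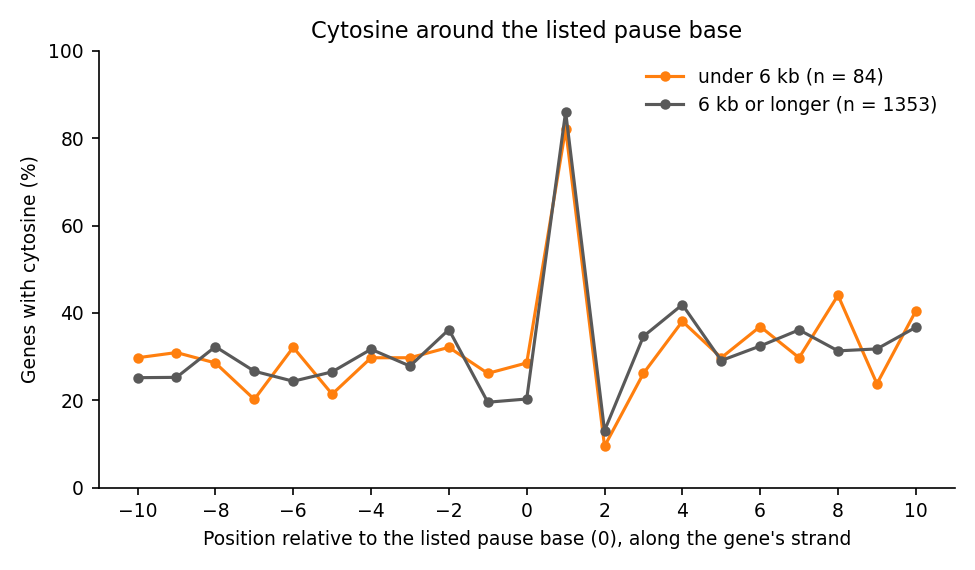
Share of genes with cytosine at each position from 10 bases before to 10 bases after the listed pause base (0), for 84 genes under 6 kb and 1353 longer genes with readable sequence. Both lines rise to a single peak at the base after the pause (82.1% and 86.0%) and fall to 9.52% and 13.1% at the next.

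The neighbourhood of the short genes was described by the gap to the nearest other listed gene. The median gap to the nearest listed gene was 25563 bp (18977 to 34184), against 33895 bp (31605 to 36110) for longer genes, and these intervals overlap. A listed neighbour lay within 10000 bp in 31.0% (26.7 to 35.8) of short and 24.1% (23 to 25.2) of longer genes. The nearest listed gene stood head-to-head in 25.7% (21.6 to 30.2) of short genes and 22.4% (21.4 to 23.5) of longer genes. The smallest gap was 1583 bp, between MYD88, the adaptor of Toll-like receptors, and ACAA1, which are head-to-head. SPHK1 (1600 bp from UBE2O), ZNF358 (1618 bp from MCOLN1), RAB26 (1644 bp from TRAF7) and TMEM238 (1666 bp from an unnamed gene) came next.

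There were 49 pairs of listed neighbours in which both genes were short, 14 head-to-head, 8 tail-to-tail and 27 in tandem, and 11 of them lay within 10000 bp. CDK4 and MARCHF9 stood head-to-head 2799 bp apart with sites at 27 and 46 bp. GCC1 and ARF5 stood head-to-head 2869 bp apart with sites at 47 and 11 bp, and PPAN and EIF3G tail-to-tail 3001 bp apart with sites at 43 and 222 bp. In the HOXA cluster HOXA10, HOXA11 and HOXA13 followed each other in tandem, 7502 and 9131 bp apart, with sites at 44, 281 and 62 bp. The 2 distances of a pair of short neighbours differed by 51 bp at the median, against 32 bp over all 6457 pairs of listed neighbours.

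The listed share of short RefSeq genes was lower beside a close neighbour. Of those with a protein-coding neighbour within 1000 bp, 71 of 776 were listed, or 9.15% (7.32 to 11.4), and of those without one 271 of 1051, or 25.8% (23.2 to 28.5). The same held for genes of 6000 bp or longer, at 17.7% (16.8 to 18.7) and 43.8% (42.8 to 44.7). By chromosome the short genes' share of listed genes was highest on chromosome 17, with 37 of 318 or 11.6% (8.56 to 15.6), among them SOX9, KRT19, HEXIM1, AURKB and 3 ribosomal protein genes, and lowest among the numbered chromosomes on chromosome 18, with 1 of 113.

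Several short genes hold small RNAs inside them. Small nucleolar RNAs, which guide modification of ribosomal RNA, were annotated by position within 15 short genes, 26 in all, and 10 of these hosts were among the 25 short ribosomal protein genes. The share of genes with one was 3.82% (2.33 to 6.20) in short and 3.63% (3.19 to 4.13) in longer genes, although the short genes cover only 1.77 Mb and the longer ones 433.6 Mb. HSPA8, the constitutive HSP70 chaperone gene, held 3 (SNORD14C, SNORD14D and SNORD14E). Hosts of small nucleolar RNAs had a median pause distance of 67 bp and the largest was 243 bp, in RPL23. MicroRNAs were annotated within 12 short genes, 1 in each, among them CDK4 (MIR6759), GDF15 (MIR3189), PTMA (MIR1244-1) and HLA-B (MIR6891). The share of genes with one was 3.05% (1.76 to 5.26), against 6.77% (6.16 to 7.43) of longer genes. Per Mb of listed gene the order was reversed, at 6.77 microRNAs in short and 1.09 in longer genes.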

How the data were processed

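The authors deposited 2 lists of 6481 rows each, 1 of gene intervals and 1 of pause sites, as hg38 coordinates in bp with no score, count or value per library. Tools named in the submitters' processing notes, without saying what each did, are deepTools 3.1.1, Bowtie2 2.2.6 and cutadapt 1.14. How the listed genes were chosen, and the caller of the pause sites, were not given in the sources used here. Intervals were read as 1-based positions and joined by Ensembl identifier. A symbol was given where the 3′ ends of the entry and of exactly 1 RefSeq gene (GRCh38.p14) were at most 50 bp apart and the gene covered 50% or more of the entry. RefSeq extents carry no exons here, so exons and introns were not assigned. Python 3.11.15, NumPy 2.4.6, pandas 2.3.3, SciPy 1.17.1 and matplotlib 3.10.9 were used, and naming and motif calls were tested on simulated data. Intervals of shares are 95% Wilson intervals and those of medians are 95% intervals from order statistics. They cover variation over genes, which are not replicates, and no test was made. The genes, families and sequence features were chosen with earlier results of these data known, and the start and pause letters after several features had been looked at.

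Named genes were the 10 shortest, the 10 of largest distance, the 10 of smallest, the 5 on each side of the limit, the 5 with the smallest gap, the smallest, middle and largest distance of each family of 3 or more, those of smaller families, and all short ribosomal protein and immediate early genes. Others were chosen after their values were seen. Of the genes this rule gives, some are not reported here.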

Additional observations from a re-analysis of the deposited data

How the results depend on the processing

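Of 45 alternatives to 28 results, 32 left the value inside its interval, or a count within 1.5 times, and 13 did not. The number of short genes was 253 with a limit of 5000 bp and 654 with a limit of 8000 bp. The median pause distance of 50 bp became 74 bp when measured from the outermost RefSeq start and 46.5 bp where both starts lay within 10 bp of each other, and the mean was 73.1 bp. Under that same condition the share under 20 bp was 3.41%. The listed share of short RefSeq genes was 16.4% with names by a reciprocal overlap of 80% and 25.8% for genes without a close neighbour. With those names the count of bHLH, ID and HES genes was 2 in place of 4, and the other 18 family counts were within 1.5 times. Counted to the nearest RefSeq protein-coding gene, listed or not, the median gap was 5101 bp. The oligopyrimidine share was 5.69% when C and 6 further pyrimidines were required, 3.48% without the named ribosomal protein genes and 2.83% when unnamed genes were left out as well. These last and the other alternatives for start and pause letters were chosen after seeing the data. The cause of these changes was not tested. No paired analysis was possible because the lists hold no value per sample.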
